A study of Mus musculus with 16 samples.

Results

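The 10 genes described here belong to the TGF-beta, BMP and myostatin pathways. They are the ligand genes Mstn, Inhba, Tgfb1 and Bmp4, the gene of the ligand-binding inhibitor Fst, the receptor genes Tgfbr2 and Acvr2b, the gene of the signal transducer Smad3, and the genes of the inhibitory proteins Smad6 and Smad7. The genes were chosen by name, and each was given a window made of its GENCODE M21 gene body (mouse build mm10) and 50 kb on each side. Of 21728 protein-coding gene windows these were 10, and they held 117 of the 80290 regions in which at least 1 of 14 libraries had an ATAC-seq peak.

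Ligands of this superfamily bring together type II and type I receptor kinases, which phosphorylate SMAD proteins that then enter the nucleus and act on transcription. TGF-beta, activin and myostatin signal mainly through SMAD2 and SMAD3 and hold back myoblast differentiation, whereas BMPs use other SMAD proteins and induce the Id genes, whose products block MyoD1. Follistatin traps myostatin and activins outside the cell, and SMAD6 and SMAD7 are feedback inhibitors inside it.

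ATAC-seq, in which a transposase inserts adapters into open chromatin, was performed in C2C12 iMyoD1 cells, mouse myoblasts in a line that keeps its endogenous Myod1 gene and also carries a doxycycline-inducible Halo-MyoD1 transgene. All libraries came from this line, after 24 h with doxycycline (+dox) or without it (no dox), and either in serum-rich growth medium (GM) or during 24 h of serum starvation in differentiation medium (DM). Seeding was 75000 cells per well for GM but 300000 for DM, so density and medium cannot be told apart in any comparison of DM with GM. Replicate 1 of both DM groups was left out here. That follows the study's methods. The comparisons use 8 GM libraries, 4 with and 4 without dox, and 6 DM libraries, 3 with and 3 without.

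The 14 lists held 14710 to 58587 peaks, over a background coverage of 0.339 to 1.13 fragments per base recovered from the peak statistics. The number of peaks moved with group, since the DM no dox lists held 23690 to 40599 peaks and the DM +dox lists 46241 to 51340. Each list was therefore also reduced to its 14710 strongest peaks ordered on −log10 p, as many as the shortest kept list holds. The 2 versions are called the full and the strongest lists. Where neither version is named, a peak in a library means one in its full list. The part of list length in such presence counts was not tested. Myoblast genes were open at their starts, Myod1 and Chrna1 in 14 of 14 libraries, Des in 13, Cdh15 in 10, Musk in 8 and Myf5 in 6, while 8 of 9 genes of other lineages had no start peak in any library and Pecam1 had one in 8. A peak list says where chromatin was open in a bulk population, so fewer cells with an open region and a less open region in each cell cannot be told apart, and no expression was measured here.

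Openness was uneven among the 10 windows. Regions at member starts and all-or-none regions are named by rule, and the others named here (Tgfb1 region 3, Bmp4 region 4, Fst regions 2 and 6, Tgfbr2 regions 5 and 8, Acvr2b region 12, Smad3 region 20, Smad6 region 6 and Smad7 region 3) were chosen after their values were seen. Of the 117 regions, 28 had a peak in all 14 libraries (23.9%, against 13.8% of the 80290 regions), and 18 were seen in 1 library only. Smad3 had 29 regions, the most of any member, while Mstn had 1 and Inhba and Bmp4 had 4 each. Regions within 1 kb of an annotated start of the member itself numbered 17, of which 8 were present in all 14 libraries, against 20 of the 100 regions elsewhere in the windows. In the strongest lists the 10 windows together held 38, 33, 31 and 34 peaks in GM no dox replicates 1 to 4 and 42, 36, 34 and 36 in GM +dox. The same sum was 30, 29 and 25 in DM no dox replicates 2 to 4 and 35, 34 and 34 in DM +dox. In this sum the DM no dox libraries thus lay below every other kept library, with 30 against 31 at the nearest, and the sum was not tested. Single genes did not all follow. Tgfbr2 had 3 peaks in each kept library, and Inhba had 1 in each DM no dox library against 1, 1, 0 and 0 in GM no dox. The plot of peaks per window gives the counts gene by gene.

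**Figure D1:**
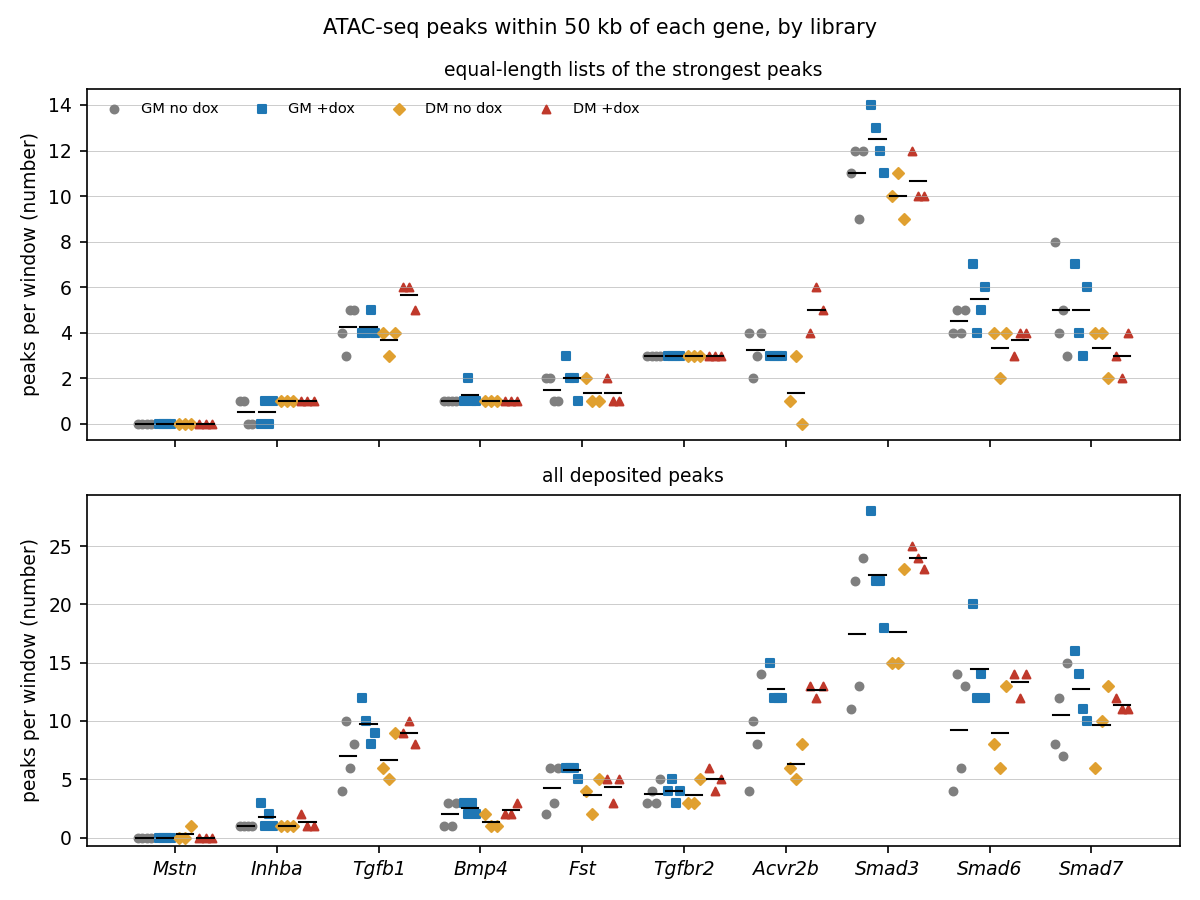
Number of ATAC-seq peaks (y axis) in the window of each of the 10 genes (x axis), in the strongest lists of 14710 peaks (top) and in the full lists (bottom). Each point is 1 library and each bar the group mean. Tgfbr2 had 3 strongest-list peaks in all 14 libraries, Mstn had none, and the Acvr2b window ranged from 0 to 6.

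The ligand genes came first. Myostatin, the muscle-secreted ligand that limits muscle mass, had no peak anywhere in its gene body or at its start in any library. Its window of 106.4 kb held 1 peak in the full lists, in DM no dox replicate 4, and that peak lay at −48.81 kb (upstream of the 5′ end, counted as negative) inside another gene, 1700019D03Rik. In the strongest lists the Mstn count was 0 in all 14 libraries.

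Inhba encodes the activin A subunit. Its window held no other protein-coding gene, and 1 region, Inhba region 2 (chr13:16011871-16012674; regions are numbered along the chromosome within a window), was its only region present in all 14 libraries, in an intron 0.56 kb from the 5′ end. Fold enrichment over the local background there was 4.94, 10.4, 5.29 and 9.61 in GM no dox replicates 1 to 4, 10.4, 11.3, 8.43 and 13.0 in GM +dox, 7.73, 8.92 and 12.6 in DM no dox replicates 2 to 4, and 16.9, 16.5 and 17.0 in DM +dox. The DM +dox values lay above all others. Median fold over whole lists moved the same way, from 7.94 to 9.40 in DM no dox against 9.15 to 10.5 in DM +dox, so differences were tested after quantile normalisation of log2 fold enrichment. On that scale differentiation with dox gave +0.47 (SE 0.18, unadjusted p = 0.0163, limma adjusted p = 0.507, n = 3 and 4), which did not pass the threshold of 0.05, and the normalised values overlapped, at 3.55 to 3.85 in DM +dox and 2.98 to 3.77 in GM +dox.

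Tgfb1 encodes TGF-beta 1. Its window also holds Bckdha, Exosc5, Tmem91, B9d2, Ccdc97 and Hnrnpul1, and a region at the B9d2 start (Tgfb1 region 3) was in every full and strongest list. The first Tgfb1 start (Tgfb1 region 4, chr7:25686761-25687510) had weak peaks in 10 of 14 libraries (in GM 2 of 4 without and 4 of 4 with dox, in DM 1 of 3 and 3 of 3) and was in no strongest list. A second region, Tgfb1 region 5 (chr7:25688846-25689700), lay 2.38 kb into the gene in an exon and within 1 kb of an alternative annotated start, and was present in all 14 libraries. It had the highest of the member differences for dox in DM. Sequences are shown for 6 regions, those with the lowest adjusted p and then the strongest peaks among the regions named by rule, so that starts and intronic regions can be compared by their letters. The 200 bp around its summit (chr7:25689282-25689481, mm10, plus strand) had 68.5% GC and none of the E-box or AP-1 letters searched for below.

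Tgfb1 region 5: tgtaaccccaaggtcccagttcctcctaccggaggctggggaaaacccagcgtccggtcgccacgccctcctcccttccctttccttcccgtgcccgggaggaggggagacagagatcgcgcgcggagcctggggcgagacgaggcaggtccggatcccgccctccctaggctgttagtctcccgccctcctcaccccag

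Fold enrichment at Tgfb1 region 5 was 4.81, 8.39, 4.97 and 11.02 in GM no dox replicates 1 to 4 and 6.86, 9.66, 8.56 and 9.35 in GM +dox. It was 6.26, 5.01 and 8.22 in DM no dox replicates 2 to 4 and 15.01, 14.3 and 13.1 in DM +dox. The 3 DM +dox libraries lay above the other 11 without overlap. After normalisation the difference was +0.63 (SE 0.21, unadjusted p = 0.00546, limma adjusted p = 0.591) for dox in DM and +0.56 (SE 0.20, unadjusted p = 0.00833, adjusted p = 0.420) for differentiation with dox. Dox in GM gave −0.05 (SE 0.18, adjusted p = 0.967). The difference between the dox effects in DM and GM was +0.69 (SE 0.28, unadjusted p = 0.0199, adjusted p = 1.00 by limma), so none of these values passed the threshold across the 11046 regions tested.

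In the strongest lists Tgfb1 region 5 was present in 3 of 3 DM libraries with dox and in 0 of 3 without. Among GM libraries, it was in the strongest lists of replicates 1 and 4 without dox and of replicate 4 with dox. The Tgfb1 window held 4, 3, 5 and 5 strongest-list peaks in GM no dox, 4, 4, 5 and 4 in GM +dox, 4, 3 and 4 in DM no dox, and 6, 6 and 5 in DM +dox. Dox in DM gave a mean difference of 2.00 peaks with no overlap (exact permutation p = 0.100, the smallest that 3 against 3 allows). In the full lists the Tgfb1 counts of the DM groups overlapped, at 5 to 9 and 8 to 10.

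Bmp4 encodes a BMP ligand. Its only region present in all 14 libraries, Bmp4 region 2 (chr14:46386885-46388408), lay 3.24 kb inside the gene at an alternative start and was in every full and strongest list. Fold enrichment was 5.36, 13.8, 9.63 and 13.7 in GM no dox, 13.7, 17.7, 11.6 and 12.3 in GM +dox, 9.35, 10.7 and 11.8 in DM no dox, and 22.1, 13.1 and 15.6 in DM +dox. The 4 normalised differences ran from +0.01 to +0.13, each smaller than its SE of 0.15 to 0.17. The summit sequence (chr14:46387329-46387528, plus strand, 71.0% GC) held the E-box CAGCTG, the motif preferred by MyoD1, here in capitals.

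Bmp4 region 2: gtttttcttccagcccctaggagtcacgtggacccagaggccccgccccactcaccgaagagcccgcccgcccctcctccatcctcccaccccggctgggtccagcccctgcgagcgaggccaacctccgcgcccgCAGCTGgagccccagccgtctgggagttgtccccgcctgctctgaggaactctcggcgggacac

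A far region upstream of Bmp4, Bmp4 region 4 (chr14:46436419-46437164, at −46.06 kb), had a peak in 2 of 4 GM libraries without and 4 of 4 with dox, and in 1 of 3 DM libraries without and 3 of 3 with dox. Fold enrichment there was 11.2, 17.3, 12.0 and 8.97 in GM +dox and 12.2, 4.62 and 4.23 in DM +dox, so the groups overlapped through DM +dox replicate 2. It entered only a fit restricted to regions with a peak in every library of both groups compared, where differentiation with dox gave −1.12 (SE 0.27, limma adjusted p = 0.0972).

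Fst encodes follistatin. The region at its start (Fst region 4, chr13:114458264-114458920) had weak peaks of 5.12-fold to 8.20-fold enrichment in 11 of 14 libraries (in GM 2 of 4 without and 4 of 4 with dox, in DM 2 of 3 and 3 of 3) and was in no strongest list. The constant region of this window was Fst region 2 (chr13:114447012-114447606), 11.54 kb downstream of the 5′ end and outside the gene, with a peak in all 14 libraries in both list versions. There, fold enrichment was 5.65, 21.4, 10.2 and 15.3 in GM no dox, 17.0, 22.7, 15.3 and 11.7 in GM +dox, 11.3, 11.9 and 19.8 in DM no dox, and 22.9, 19.3 and 18.8 in DM +dox. Its 4 normalised differences ran from +0.04 to +0.13. A weak region at −3.84 kb (Fst region 6) was present in 3 of 4 GM no dox and 2 of 4 GM +dox libraries and in 0 of 6 DM libraries.

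**Figure D2:**
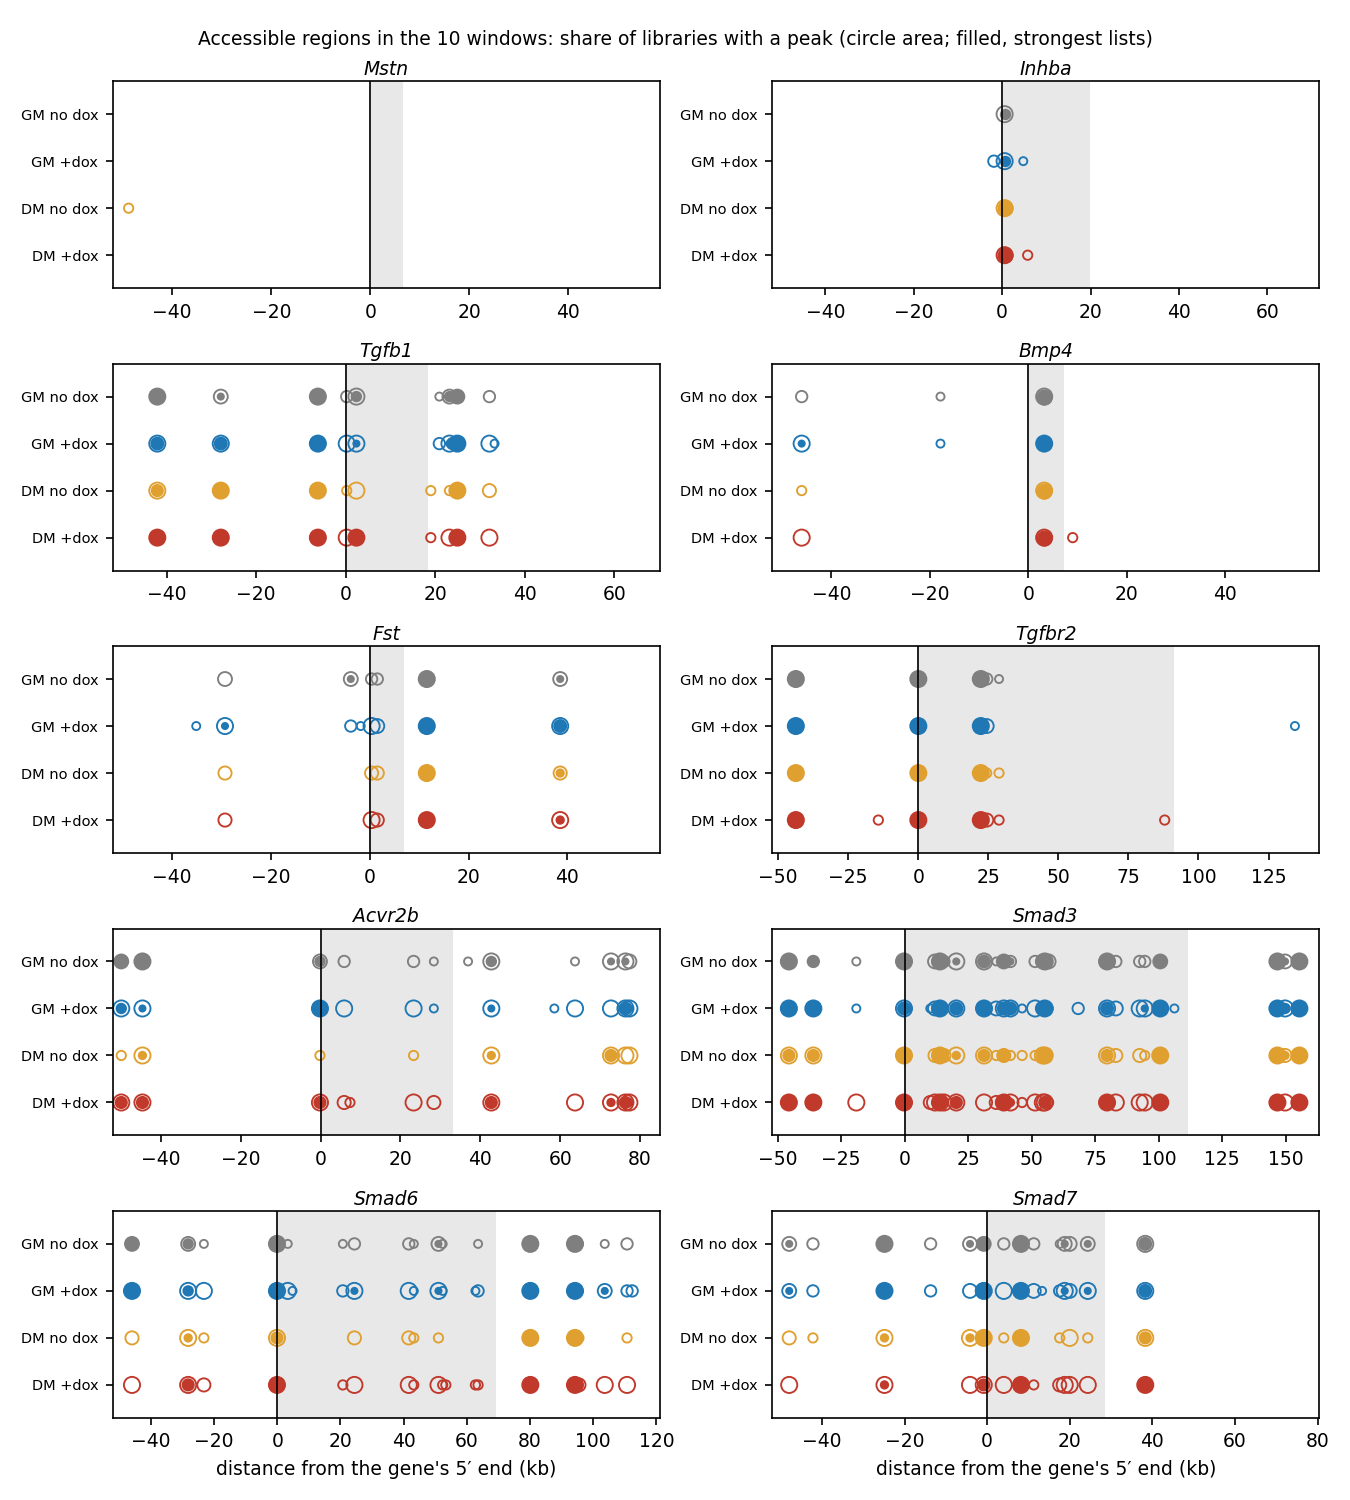
Position of the regions in the 10 windows, as distance from the 5′ end of each gene in kb (x axis), with the gene body shaded and 1 row for each group. Circle area is the share of the group's libraries with a peak in the full lists (open) or strongest lists (filled). Mstn shows 1 open circle, in DM no dox, and Tgfbr2 the same 3 filled circles in all 4 groups.

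Tgfbr2, the type II TGF-beta receptor, had 3 regions that were in the strongest list of all 14 libraries, at its start (Tgfbr2 region 6, chr9:116174513-116175971), 22.34 kb inside the gene (Tgfbr2 region 5, chr9:116152767-116153338) and at −43.65 kb (Tgfbr2 region 8, chr9:116218541-116219211). The intronic region was the strongest of the 117 by its median place in the lists, with a median of 3.45% of a library's peaks stronger than it. Fold enrichment at Tgfbr2 region 5 was 10.8, 17.9, 11.8 and 14.6 in GM no dox, 19.3, 19.8, 14.3 and 12.8 in GM +dox, 14.7, 14.6 and 16.3 in DM no dox, and 21.8, 19.1 and 16.5 in DM +dox. Across the 3 regions the 12 normalised differences ran from −0.17 to +0.29 and none had an unadjusted p under 0.05.

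Acvr2b, a type II receptor for activins and myostatin, had a start region (Acvr2b region 3, chr9:119401683-119402622). It had a full-list peak in 3 of 4 GM libraries without and 4 of 4 with dox. In DM it had one in 1 of 3 libraries without and 3 of 3 with dox. DM no dox replicates 2 and 3, without this peak, had lists of 23690 and 24181 peaks, shorter than the DM +dox lists (46241 to 51340). Fold enrichment, where there was a peak, was 10.6, 8.18 and 16.1 in GM no dox replicates 2 to 4, 14.9, 16.2, 12.8 and 14.1 in GM +dox, 11.8 in DM no dox replicate 4, and 13.9, 13.97 and 15.05 in DM +dox. Its summit sequence (chr9:119401870-119402069, plus strand, 73.0% GC) held neither E-box nor AP-1 letters.

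Acvr2b region 3: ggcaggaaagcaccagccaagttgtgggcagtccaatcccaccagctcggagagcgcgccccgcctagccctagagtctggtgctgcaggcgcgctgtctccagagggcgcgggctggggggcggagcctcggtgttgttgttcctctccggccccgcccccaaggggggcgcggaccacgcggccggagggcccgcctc

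The Acvr2b window also holds other genes, among them Slc22a14, Xylb and Exog. Strongest-list peaks numbered 4, 2, 3 and 4 in GM no dox, 3 in each GM +dox library, 1, 3 and 0 in DM no dox, and 4, 6 and 5 in DM +dox. The DM +dox counts thus overlapped neither DM no dox (difference 3.67, exact permutation p = 0.100, the smallest possible) nor GM +dox (difference 2.00, exact permutation p = 0.0286, the smallest that 3 against 4 allows). After adjustment over all windows by the Benjamini-Hochberg method, the exact permutation p was 1.00 in both cases. The counts cover the whole window. In DM +dox replicate 2 all 4 strongest-list peaks lay downstream of Acvr2b. The Acvr2b start region was not among them, with 36% of that library's peaks stronger than it. In the full lists the window counts were 6, 5 and 8 in DM no dox and 13, 12 and 13 in DM +dox, without overlap. The same held for 28.5% of the 18607 windows with a full-list peak, and the DM +dox lists were the longer ones. GM +dox counts were 15, 12, 12 and 12, which overlapped DM +dox.

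Acvr2b region 12 (chr9:119473601-119475120) lay between genes. Fold enrichment there was 3.81, 5.49, 4.38 and 5.40 in GM no dox, 5.28, 5.21, 5.66 and 5.79 in GM +dox, 6.38, 6.399 and 8.29 in DM no dox, and 6.001, 5.78 and 6.46 in DM +dox, so the DM groups overlapped. On the normalised scale DM no dox lay above the other groups, at 2.92 to 3.09 against 2.13 to 2.66. Normalised differences were +0.60 for differentiation without dox (SE 0.18, unadjusted p = 0.00311, limma adjusted p = 0.187) and −0.53 for dox in DM (SE 0.20, unadjusted p = 0.0114, limma adjusted p = 0.669). Its summits spread over 705 bp, and with recovered fragment pileup in place of fold enrichment the dox difference in DM was +0.09.

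**Figure D3:**
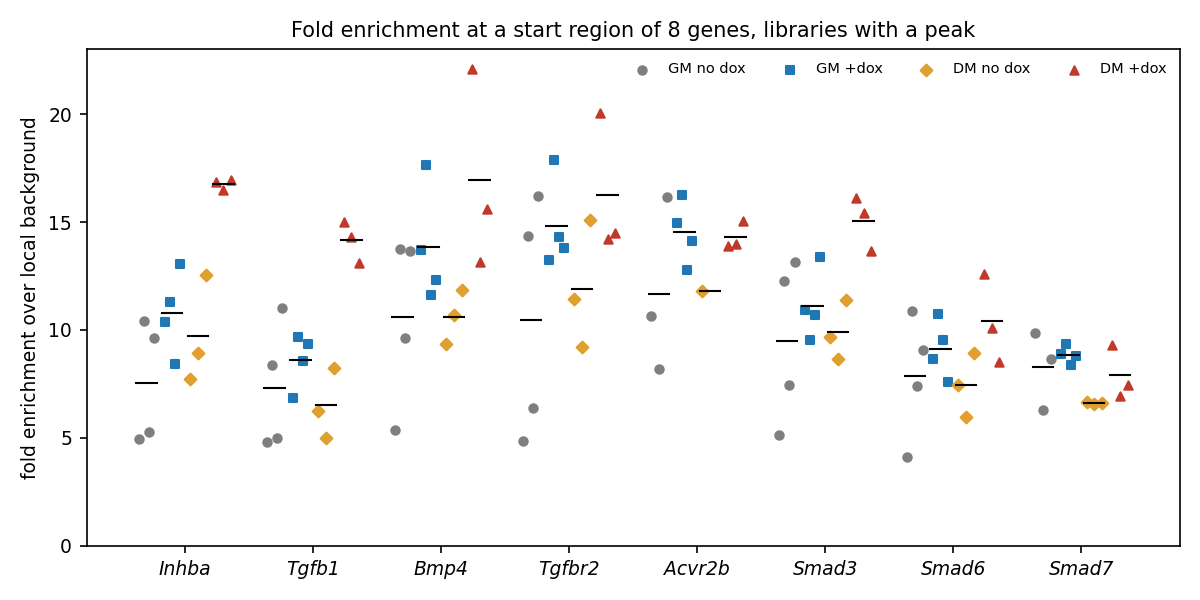
Fold enrichment over the local background (y axis) at a start region of 8 members (x axis), with 1 point for each kept library that has a peak there and a bar at the group mean. The DM +dox points at Inhba (16.5 to 17.0) and Tgfb1 (13.1 to 15.01) lie above all other groups. Values are as deposited, before normalisation between libraries.

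SMAD3 transmits TGF-beta, activin and myostatin signals. The Smad3 window was the richest, with 9 to 14 strongest-list peaks in each library. Counts were 11, 12, 9 and 12 in GM no dox, 14, 13, 12 and 11 in GM +dox, 10, 11 and 9 in DM no dox, and 12, 10 and 10 in DM +dox, and the groups overlapped in every comparison. The start (Smad3 region 26, chr9:63757741-63758645) and 8 other regions of the window were present in all 14 libraries. Sequences are shown for this GC-rich start (chr9:63758107-63758306, plus strand, 78.0% GC) and for an intronic region at an alternative start, Smad3 region 22 (chr9:63743945-63744144, plus strand, 49.0% GC), which was in the strongest list of all 14 libraries and held an AP-1 element (TGANTCA, capitals).

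Smad3 region 26: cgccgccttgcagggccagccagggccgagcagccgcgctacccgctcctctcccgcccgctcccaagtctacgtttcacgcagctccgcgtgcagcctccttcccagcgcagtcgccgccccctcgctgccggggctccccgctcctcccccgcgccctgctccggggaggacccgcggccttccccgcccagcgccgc
Smad3 region 22: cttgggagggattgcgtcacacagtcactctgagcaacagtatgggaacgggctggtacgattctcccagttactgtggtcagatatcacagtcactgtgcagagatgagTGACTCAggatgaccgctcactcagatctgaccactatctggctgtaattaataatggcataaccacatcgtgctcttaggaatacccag

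Among the intronic regions, Smad3 region 20 (chr9:63737389-63737843, 20.37 kb from the 5′ end) had the largest difference for dox in GM. Fold enrichment was 3.75, 8.96, 4.65 and 11.2 in GM no dox, 13.8, 13.7, 9.18 and 11.5 in GM +dox, 8.11, 4.74 and 10.2 in DM no dox, and 15.5, 11.9 and 10.7 in DM +dox. The GM groups overlapped on the normalised scale, at 2.50 to 3.30 without dox and 3.12 to 3.60 with dox. The difference was +0.59 (SE 0.19, unadjusted p = 0.00458, limma adjusted p = 0.800).

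Smad3 region 19 (chr9:63726438-63726932, 31.29 kb from the 5′ end) was in the strongest list of 3 of 4 GM libraries without and 4 of 4 with dox, and of 2 of 3 DM libraries without and 0 of 3 with dox. Among all deposited peaks it was present in all 14 libraries, with fold enrichment of 11.9, 10.3, 13.4 and 9.53 in GM +dox and 9.97, 7.66 and 11.4 in DM +dox, which overlapped. The normalised difference for differentiation with dox was −0.34 (SE 0.21, limma adjusted p = 0.790). A CAGCTG E-box stood near the end of its summit sequence (chr9:63726603-63726802, plus strand, 58.0% GC), in capitals.

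Smad3 region 19: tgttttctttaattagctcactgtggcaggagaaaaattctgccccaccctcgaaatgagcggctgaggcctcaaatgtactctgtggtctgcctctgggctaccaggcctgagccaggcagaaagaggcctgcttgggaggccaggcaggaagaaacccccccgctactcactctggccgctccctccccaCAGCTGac

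SMAD6 inhibits BMP signalling. Its start (Smad6 region 18, chr9:64021872-64023242) was open in all 14 libraries, with summits spread over 1103 bp, and its strongest region was downstream of the gene (Smad6 region 6, chr9:63941756-63942134, 80.08 kb from the 5′ end), with fold enrichment of 10.8 to 23.8 in GM no dox, 16.6 to 24.4 in GM +dox, 11.9 to 19.2 in DM no dox and 22.0 to 28.1 in DM +dox. Normalised differences at the start ran from −0.06 to +0.06. A further region, Smad6 region 21 (chr9:64067758-64068438), lay at −45.94 kb between genes. It was in the strongest list of 3 of 4 GM no dox and 4 of 4 GM +dox libraries and of 0 of 6 DM libraries. Among all deposited peaks it was present in 12 of 14 libraries, and fold enrichment was 6.82, 17.4 and 12.8 in GM no dox replicates 1, 2 and 4, 14.1, 20.5, 12.9 and 13.6 in GM +dox, 6.18 and 8.84 in DM no dox replicates 2 and 4, and 13.9, 6.01 and 7.84 in DM +dox. Where there was a peak, the GM and DM values overlapped both without and with dox. Since 2 libraries had no peak, Smad6 region 21 was outside the fit over all groups. In the fit on regions present in all libraries of both groups, differentiation with dox gave −0.98 (SE 0.21, unadjusted p = 0.000275, limma adjusted p = 0.0759), the lowest p of 58 member regions. No member region was called in that fit, in which 0.135% of 27426 regions were. At an unadjusted limma p under 0.05 it held 7 of the 58 members (12.1%), against 13.2% of all regions.

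SMAD7 inhibits TGF-beta and activin signalling. A region at −0.83 kb (Smad7 region 6) had a peak in 13 of 14 libraries, and Smad7 region 8, inside the gene at an alternative start, had one in all 14, both in the full lists. Fold enrichment at Smad7 region 8 was 6.23, 12.8, 7.26 and 10.8 in GM no dox, 8.64, 11.9, 12.8 and 7.86 in GM +dox, 8.27, 11.8 and 12.5 in DM no dox, and 13.8, 15.9 and 12.7 in DM +dox, with normalised differences from −0.24 to +0.31. A distal region at −24.87 kb (Smad7 region 3) was in the strongest list of 4 of 4 libraries in both GM groups and of 1 of 3 in both DM groups. In the full lists it had a peak in all 14 libraries. In the fit on regions present in all libraries of both groups, differentiation without dox gave −0.15 (SE 0.20, limma adjusted p = 0.905). Differentiation with dox gave +0.04 (SE 0.18, limma adjusted p = 0.956). The Smad7 window held 8, 4, 5 and 3 strongest-list peaks in GM no dox, 7, 4, 3 and 6 in GM +dox, 4, 4 and 2 in DM no dox, and 3, 2 and 4 in DM +dox, and these ranges overlapped.

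**Figure D4:**
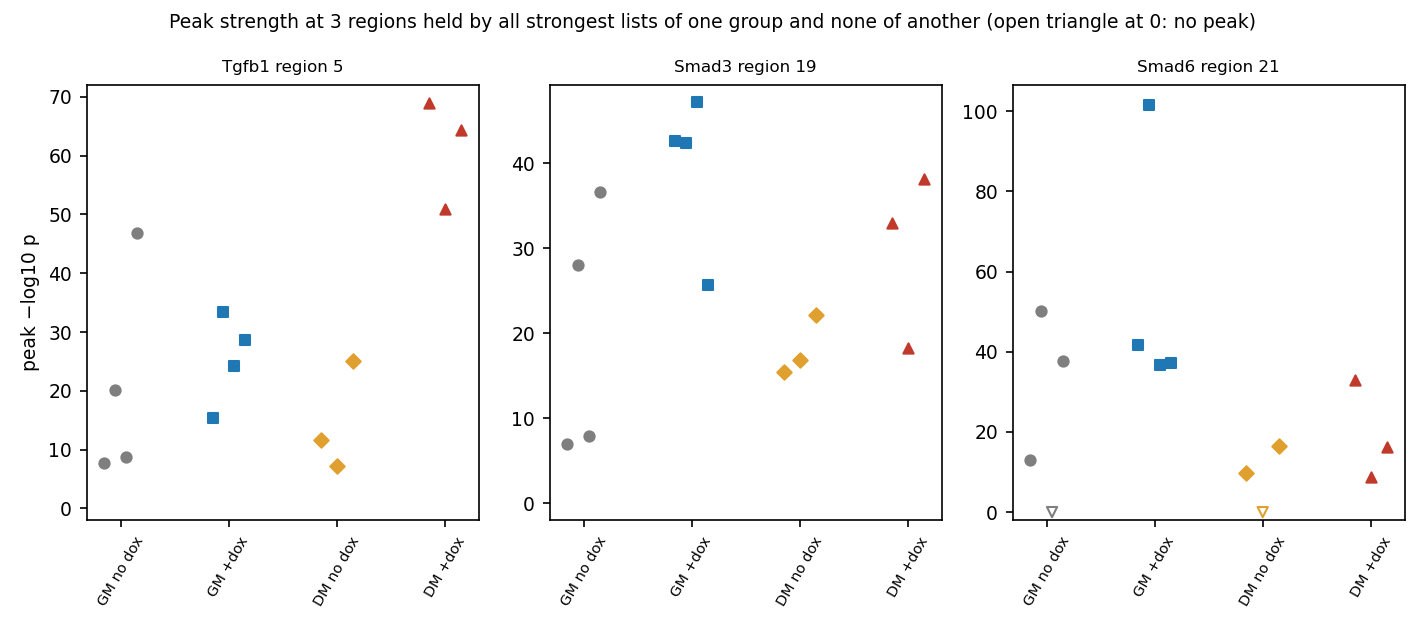
Peak −log10 p (y axis) by group (x axis) at 3 regions that were in every strongest list of one group and in none of another. Each point is 1 kept library, and an open triangle at 0 means that the library had no peak. At Tgfb1 region 5 the DM +dox libraries (50.9 to 69.0) lie above all others.

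Over all 28 regions present in the 14 libraries, limma called 0 member regions in each of the 4 comparisons and 0 for the difference of the dox effects between media, at an adjusted p under 0.05. Over all 11046 regions the same rule called 0% for dox in either medium and 0% for the difference of the dox effects. For differentiation it called 0.263% without dox and 0.0453% with dox. At an unadjusted p under 0.05 dox gave 2 higher and 0 lower members in GM and 4 higher and 1 lower in DM. Differentiation gave 1 higher and 1 lower without dox, and 2 higher and 0 lower with it. The difference of the dox effects gave 1 higher and 1 lower. Members at that level were 7.14% for dox in GM and 17.9% for dox in DM, against 6.10% and 6.71% of all regions. They were 7.14% in each of the other 3, against 10.98% of all regions for differentiation without dox, 7.46% with dox and 2.17% for the difference of the dox effects. In the fit on regions present in all libraries of both groups, dox in DM gave 4 of 38 members at that level. That was 10.5%, against 9.1% of all regions in that fit. Dox in GM gave 7.14% against 4.74%, and differentiation 3.57% against 8.22% without dox and 12.1% against 13.2% with it. For dox in DM the median difference of the 28 was +0.13, against 0.00 over all regions. Positive were 20 of 28, against 5439 of 11046. Differentiation with dox, which uses the same DM +dox libraries, also had 20 of 28 positive, against 5740 of 11046. Positive members were 12 of 28 for dox in GM and 16 of 28 for differentiation without dox, against 5478 and 5857 of 11046. Several of the 28 share a window and are not replicates. The other member medians were −0.01 for dox in GM and, for differentiation, +0.03 without dox and +0.08 with it, and those of all regions lay between 0.00 and +0.01. For dox in DM, differences were also simulated, with 200 of 11046 regions changed at once and all libraries drawn independently. There a log2 change of 1 was recovered in 90.5% of changed regions, one of 0.6 in 39.0% and one of 0.3 in 0%. Recovery after adjustment depends on how many regions change, so these shares need not hold for the member regions of the data. The 28 member differences for dox in DM ran from −0.53 to +0.63.

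**Figure D5:**
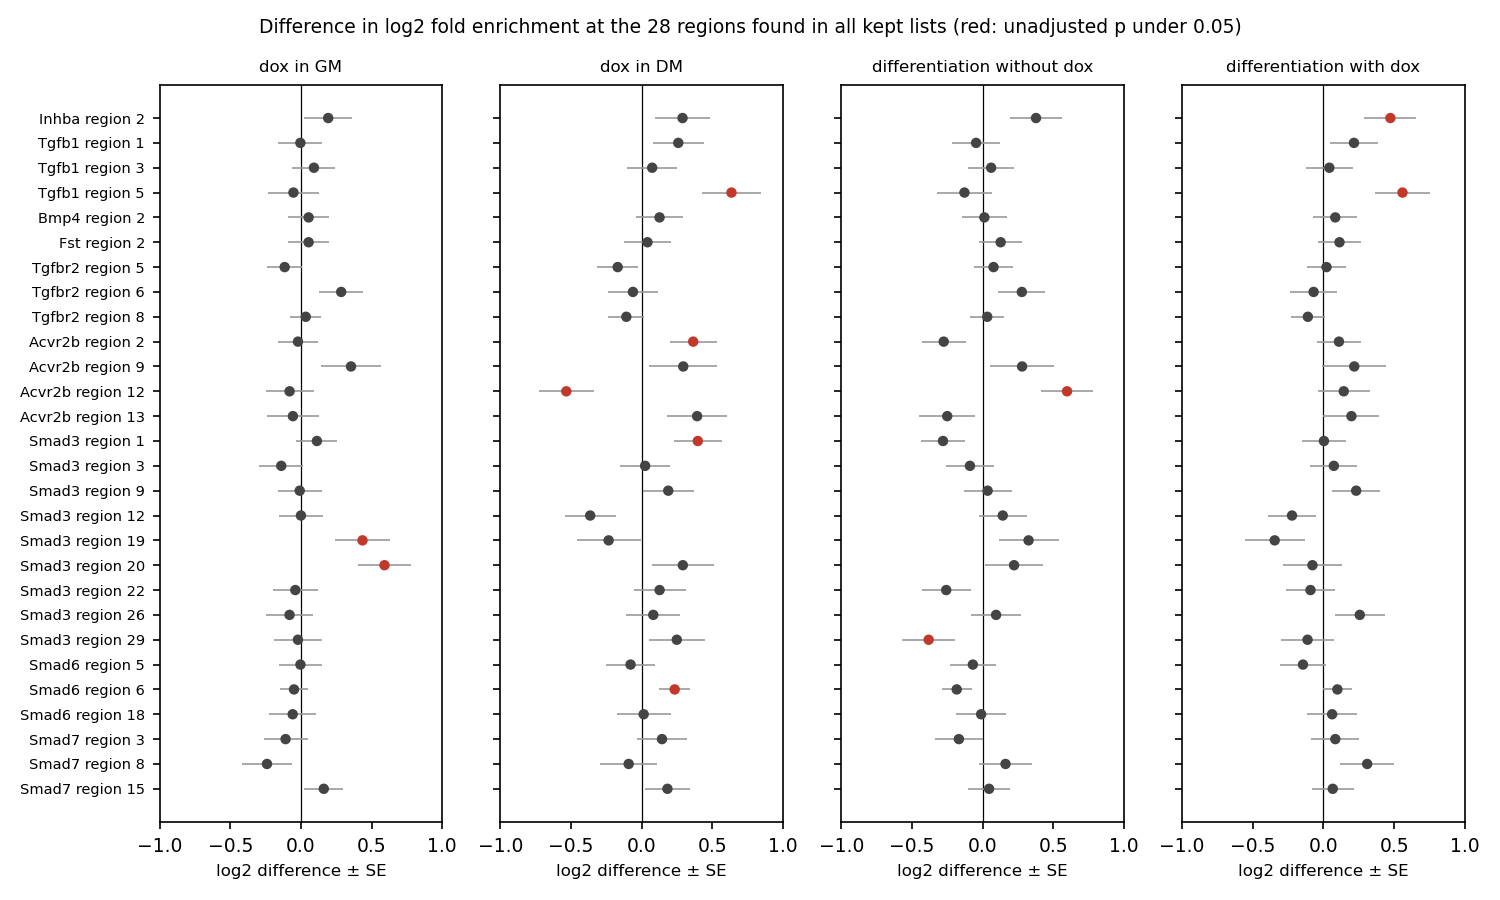
Normalised log2 difference in fold enrichment, with its SE (x axis), at the 28 member regions found in all 14 lists (y axis), for the 4 comparisons. Red points have an unadjusted p under 0.05 and none passed after adjustment. Tgfb1 region 5 stands at +0.63 for dox in DM and Acvr2b region 12 at +0.60 for differentiation without dox.

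Counted as windows whose groups did not overlap in the number of strongest-list peaks, 0 of the 9 members with such a peak (all but Mstn) differed by dox in GM and 2 of 9 by dox in DM. Over all 16373 protein-coding windows with such a peak the shares were 0.428% and 2.71%. The 2 members were Tgfb1 and Acvr2b, both higher with dox. Differentiation gave 0 members without dox (2.86%) and 1 with dox (3.16%), Acvr2b, higher in DM. With all deposited peaks, where 18607 windows and all 10 members had a peak, dox gave 0 members in GM (1.41% of those windows) and 1 in DM (28.5%), Acvr2b, and differentiation gave 0 without dox (0.161%) and 0 with it (3.04%). DM +dox lists were also longer than DM no dox lists (46241 to 51340 against 23690 to 40599 peaks), and the part of list length in the full-list counts was not tested.

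A region was counted as all-or-none when all libraries of one group and no library of the other had it. Member counts are out of the member regions with a peak in either group, and shares in brackets are of all such regions. In the strongest lists dox gave 0 of 56 in GM (0.287%) and 2 of 43 in DM (1.61%), both present with dox. Of these 2, Tgfb1 region 5 is described here. Differentiation gave 0 of 51 without dox (2.03%) and 3 of 53 with dox (2.21%). Of these 3, Smad3 region 19 and Smad6 region 21, both present in GM, are described here. With all deposited peaks dox gave 0 of 109 in GM (0.446%) and 4 of 97 in DM (5.39%). Differentiation gave 0 of 96 without dox (0.411%) and 1 of 115 with it (1.81%). The 4 found with dox in DM were Acvr2b region 11 (chr9:119465576-119465934), Smad3 region 27 (chr9:63776802-63777093), Smad6 region 3 (chr9:63918176-63918548) and Smad7 region 12, each present in 3 of 3 DM libraries with dox and 0 of 3 without. All 4 were also present in some GM libraries, from 2 of 8 for Smad3 region 27 to 7 of 8 for Smad7 region 12. Smad6 region 17, an intronic region 3.34 kb from the Smad6 5′ end, was present in 4 of 4 GM +dox and 0 of 3 DM +dox libraries, with fold enrichment of 5.02, 3.89, 4.65 and 4.03 in GM +dox.

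Beyond the 10 members, 61 other genes of the pathways were examined by the same window rule. In the strongest lists dox gave 0 of 61 in GM and 2 higher and 1 lower in DM, where 2.71% of all windows with a strongest-list peak were called. Differentiation gave 1 higher and 2 lower without dox (2.86%), and 0 higher and 2 lower with it (3.16%). These counts are small and were not tested against the share of all windows, and some of the 61 had no strongest-list peak. The genes behind them are given as values only. Id1, a BMP-induced inhibitor of MyoD1, had 2, 2, 3 and 3 peaks in its window in GM no dox, 4, 3, 3 and 3 in GM +dox, 1 in each DM no dox library, and 3, 2 and 2 in DM +dox. In the strongest lists Id1 counts were thus lowest in DM no dox, with no overlap with any other group. Full-list Id1 counts were 3, 3 and 9 in DM no dox and overlapped GM no dox, at 2, 11, 6 and 13. Acvr1b, a type I activin receptor, held 5, 5 and 6 peaks in DM no dox and 8, 7 and 8 in DM +dox. Ppm1a, a phosphatase of SMAD proteins, had the opposite order, with 3, 4 and 3 peaks in DM no dox against 1, 2 and 1 in DM +dox and 2 in each GM no dox library. Id3 held 5, 6, 5 and 6 peaks in GM +dox and 4 in each DM +dox library, and Smurf2, a ubiquitin ligase acting on SMADs and receptors, held 4 and 3. Without dox the counts of both genes overlapped. Id3 then held 4, 6, 6 and 6 peaks in GM and 4, 5 and 4 in DM. Smurf2 held 4, 5, 4 and 4 in GM and 4, 4 and 3 in DM. Tgfb3 had 2, 4, 3 and 2 peaks in GM no dox and 1, 0 and 1 in DM no dox. With dox its counts overlapped, at 3, 4, 1 and 2 in GM and 3, 1 and 1 in DM. With all deposited peaks 25 of 61 were higher for dox in DM, beside 28.5% of the 18607 windows.

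Short motifs were counted on both strands in the 200 bp around each summit. The E-box CAGCTG was in 22 of 117 member regions (18.8%, against 19.8% of all 80290) and the E-box CAGGTG in 11 (9.4% against 10.6%). The AP-1 element TGANTCA was in 32 (27.4% against 32.0%) and the TEAD element GGAATG in 30 (25.6% against 17.5%). The SMAD3/4 element CAGAC was in 58 (49.6% against 43.1%) and the GC-rich SMAD element GGCGCC in 10 (8.55% against 5.04%). Among the 28 member regions in all 14 lists, CAGCTG was in 21.4%, CAGGTG in 7.14% and TGANTCA in 25.0%. Over the 11046 such regions of the series these shares were 16.7%, 7.27% and 31.6%. GGAATG was in 21.4% of the 28 (15.9% of the 11046), CAGAC in 32.1% (41.1%) and GGCGCC in 10.7% (9.32%). Member windows had a median GC of 56.0%, against 50.5% over all regions. None of the 6 motifs was in the summit window of Tgfb1 region 5, whereas Smad6 region 21 held the TEAD and SMAD3/4 elements. A match describes letters in a window and not a bound site.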

How the data were processed

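The series holds 16 ATAC-seq libraries of C2C12 iMyoD1 cells. Per the study's methods and the labels, the authors aligned reads to mm10 and called narrow peaks per library with MACS2. The deposited lists give for each peak a score, a fold enrichment (a ratio over local background) and −log10 of the p-value and q-value, as the authors' caller wrote them, with −log10 q of at least 1.30. The score was not used. Lists hold no read counts, so no count model was fitted. Background coverage, the depth behind a list, was solved from fold and p (whole fragment pileups within 0.05 for at least 99.986% of peaks).

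Peaks of 14 libraries overlapping by at least 1 bp were merged, and a region belonged to a member when its median summit lay in the window. Coordinates are mm10, 1-based, with GENCODE M21 genes, and sequences come from the RefSeq GRCm38 genome. Log2 fold enrichment of regions present in all 14 lists was quantile-normalised and fitted over all groups with limma 3.58.1 in R 4.3.3, with Benjamini-Hochberg adjustment. Peak numbers were compared by exact two-sided permutation tests. Scripts ran in Python 3.11.15 with pandas 2.3.3 and were tested on simulated data. Same-numbered libraries deviated together (correlations of 0.107 to 0.465 over 13 pairs), so replicate number was also fitted as a block, as an alternative. The labels call replicates biological but name no separate cultures, and p-values measure the spread between these libraries.

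The members, windows and gene lists were chosen with earlier results of these data known. The rule for named regions took those at a member's start and the all-or-none regions, at most 2 per member, comparison and direction, and regions named outside it are listed as such in the text. Sequences are shown for 6 named regions outside untranslated exons and outside chromosome 18, by adjusted p, then strength. Alternatives changed the normalisation, measure, peak threshold, overlap, list length, ranking, window size, libraries and replicate terms. Of the member regions, 1 is counted but not reported here.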

Additional observations from a re-analysis of the deposited data

Results flagged for a closer look

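Among 60 groups of 4 libraries examined, 1 held a library far from the rest, where chance alone gives about 1 in 20. At the start of Tgfbr2 (Tgfbr2 region 6) the normalised log2 fold enrichment of GM +dox replicate 1 was 3.48, below the other 3 libraries of its group at 3.80 to 3.85.

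The 2 libraries that entered no comparison also held peaks near the members. In the full lists the 10 windows held 5 peaks in DM no dox replicate 1, from a list of 1287 peaks, and 39 peaks in DM +dox replicate 1, from a list of 14236.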

How the results depend on the processing

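In every alternative run, limma called 0 member regions in each comparison and for the difference of the dox effects. With the replicate number as a block, which the pairing of libraries allows, the count was again 0 for each of them, and no call changed. The counts of windows and all-or-none regions were less stable, and the cause was not tested. Using all deposited peaks, the member windows without overlap were 1 for dox in DM and 0 for differentiation with dox, and the all-or-none regions 4 and 1. Using the 7355 strongest peaks of each list, dox gave 1 window and 1 all-or-none region in GM and 0 of both in DM, and differentiation with dox gave 0 of both. Ranked by fold enrichment, windows were 2 for differentiation without dox, and all-or-none regions 0 for dox in DM and 1 for differentiation with dox. Using all 16 libraries, both counts were 1 for dox in DM. A flank of 10 kb gave 1 window and 1 region for dox in DM, and 0 windows and 1 region for differentiation with dox. A flank of 100 kb gave 1 window for dox in DM, and 1 window and 1 region for differentiation without dox.

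Leaving out each library in turn, the windows for differentiation were 0 to 1 without dox (1 without DM no dox replicate 3) and 1 to 2 with dox, where 2 was reached without replicate 2 or 4 of DM +dox or replicate 2 or 3 of GM +dox. The all-or-none regions by dox were 0 to 1 in GM (1 without GM +dox replicate 4) and 2 to 4 in DM (4 without DM +dox replicate 2). By differentiation they were 0 to 2 without dox (2 without GM no dox replicate 3) and 3 to 4 with dox. Some differences turned direction. Acvr2b region 12 stood at +0.089 for dox in DM on recovered pileup. The Tgfb1 window stood at −0.33 peaks for dox in DM with the 7355 strongest peaks. For differentiation with dox the Acvr2b window stood at −0.083 with all deposited peaks, −0.50 with the 7355 strongest peaks and −0.25 ranked by fold enrichment.

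Peak lists hold no value where no peak was called, so a missing peak is not a measured 0, and depth differed between libraries by 0.339 to 1.13 fragments per base.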
